A study of Homo sapiens with 12 samples.

Results

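The aldehyde dehydrogenases described here are 10 human genes, ALDH1A1, ALDH1A2, ALDH1A3, ALDH1B1, ALDH2, ALDH3A1, ALDH3A2, ALDH3B1, ALDH7A1 and ALDH9A1. They were picked by gene name, with every probe that carries one of these names. The 10 are among 34599 gene names in the table, and they have 18 of the 47228 probes on the arrays, and 16 of them, with at least 1 for each of the 10 genes, passed the filter on dim probes and were tested. The genes were put forward with hairpin and cell line differences of these same arrays already known, so the values and adjusted p-values below describe the family and are not independent evidence about it.

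MIA PaCa-2 and Capan-1, both human pancreatic ductal adenocarcinoma cell lines, carried a puromycin-selected hairpin in a doxycycline-inducible (tet-on) pLKO.1 backbone. Each line had 3 groups of 2 arrays, 12 arrays in all on 1 chip: a scrambled control hairpin (shCtrl) and hairpins sh1209 and sh1319 against focal adhesion kinase (FAK, gene PTK2), a tyrosine kinase at integrin contacts. The labels of the Capan-1 arrays write shFAK1319 for the second hairpin. MIA PaCa-2 was kept in 3.5 ug/ml and Capan-1 in 1.5 ug/ml puromycin, and the protocol, worded alike for all groups, gives 50 ng/ml doxycycline for 96 hours. The labels name neither the culture behind each array of a group nor whether a line was 1 clone, so a p-value measures the spread between arrays, which may be technical, and the number of arrays limits the precision. Each array measured a bulk culture, in which fewer cells of a type and less RNA per cell cannot be told apart.

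Aldehyde dehydrogenases use NAD or NADP to oxidise aldehydes to carboxylic acids. The cytosolic ALDH1A enzymes turn retinal into retinoic acid, the ligand of the nuclear retinoic acid receptors, and other members clear acetaldehyde, lipid aldehydes and intermediates of amino acid breakdown. High ALDH activity, read with a fluorescent substrate, is widely used to mark clonogenic cells of pancreatic and other carcinomas.

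The upstream sequences of the 3 genes that changed most between hairpins or cell lines on more than 1 probe are shown first, so that the genes can be told apart by sequence. Each run is the 250 bases before the RefSeq start in GRCh38.p14, 5′ to 3′ on the gene's strand, and capitals mark every GC box (GGGCGG) and CCAAT box (CCAAT) found on either strand. ALDH1A1 lies at chr9:72953054-72953303 (minus strand), ALDH1A3 at chr15:100879581-100879830 (plus strand) and ALDH7A1 at chr5:126595220-126595469 (minus strand).
ALDH1A1: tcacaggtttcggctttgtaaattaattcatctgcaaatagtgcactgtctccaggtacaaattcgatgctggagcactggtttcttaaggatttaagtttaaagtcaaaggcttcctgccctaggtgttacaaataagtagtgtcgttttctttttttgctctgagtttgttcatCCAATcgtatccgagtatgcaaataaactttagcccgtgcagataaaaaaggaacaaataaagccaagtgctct
ALDH1A3: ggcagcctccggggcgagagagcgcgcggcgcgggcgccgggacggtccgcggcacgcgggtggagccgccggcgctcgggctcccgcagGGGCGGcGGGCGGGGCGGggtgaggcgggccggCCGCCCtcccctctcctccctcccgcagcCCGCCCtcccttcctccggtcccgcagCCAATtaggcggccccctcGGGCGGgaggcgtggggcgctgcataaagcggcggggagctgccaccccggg
ALDH7A1: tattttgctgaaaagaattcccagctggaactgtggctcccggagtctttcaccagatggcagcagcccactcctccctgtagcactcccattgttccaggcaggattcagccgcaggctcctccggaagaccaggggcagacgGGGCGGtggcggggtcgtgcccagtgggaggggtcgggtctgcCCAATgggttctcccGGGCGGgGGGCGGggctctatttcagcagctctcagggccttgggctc
The ALDH1A1 window was 38.4% GC and held no GC box and 1 CCAAT box, whose first letter stood 74 bases before the start. The ALDH1A3 window was 82.4% GC, with 6 GC boxes, of which a pair shares 1 base, and 1 CCAAT box 71 bases before the start. ALDH7A1 was 64.0% GC, with 3 GC boxes and 1 CCAAT box 63 bases before the start. Over 35116 RefSeq promoter windows of this length the median was 58.0% GC, 42.6% held a GC box and 32.0% a CCAAT box. The TATA box TATAAA (10.7% of windows), the AP-1 sites TGACTCA or TGAGTCA (4.2%), the retinoic acid receptor motif AGGTCA (12.1%), the TEAD letters CATTCC (11.9%) and the antioxidant response core TGACNNNGC (10.9%) were in none of the windows of the 8 genes with a RefSeq entry here. ALDH2 and ALDH3A1 had no entry.

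All levels below are normalized log2 intensities of single probes, given for replicate 1 and then replicate 2, and a change is a difference of 2 group means on that scale. The dimmest probe detected on an array stood between 4.55 and 4.74, so a level near 4.3 is background. An offset of 16 was added before the log, which shrinks the changes of dim probes. A probe's brightness also depends on its own sequence, so levels of different probes are not compared. "Rose" and "fell" are used where the limma adjusted p was under 0.05 over the 24207 tested probes. Median scaling shifts each array to a common median in place of quantile normalization, and for the 10 genes it is named, as is a left-out array, where it ended a call that is given. For other genes only median scaling and a fit without background correction were run.

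PTK2 was checked first. On its brighter probe, 450253, in MIA PaCa-2 PTK2 stood at 21.1% of shCtrl under sh1209 and 17.9% under sh1319, while the Capan-1 values were 65.4% and 29.2% (limma adjusted p of 0.00362 or less in each). Its dimmer probe, 2680750, did not pass the test in any of these comparisons and was higher, by 0.31, with sh1209 in MIA PaCa-2. Of 6 epithelial marker genes, all 6 were detected in Capan-1, where their summed intensity was 15757.6 to 21995.3. In MIA PaCa-2 with shCtrl 4 were detected, without EPCAM and CDH1, and the sum was 2000.8 to 2057.5. That sum was 1514.2 to 1623.9 with sh1209 and 1005.8 to 1119.2 with sh1319. KRT8, which gave most of it, had means of 10.67, 10.25 and 9.58 with shCtrl, sh1209 and sh1319. Of the 9 epithelial probes 1 was called with sh1209 and 3 with sh1319, each lower, against 18.0% and 24.3% of all probes. Their median changes were 0.01 and -0.06. Of 5 fibroblast markers at most 1 was detected in a group, on both arrays for COL3A1 in MIA PaCa-2 with either FAK hairpin and for LUM in Capan-1 with sh1319. In MIA PaCa-2 the 5 summed to 350.4 to 361.2 with sh1209 and 301.0 to 328.6 with sh1319 against 161.8 to 164.0 with shCtrl. At most 2 of 3 leukocyte and 1 of 2 endothelial markers were detected in any group. The part of these differences in the results below was not tested.

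ALDH1A1, the retinal dehydrogenase most often tied to high ALDH activity, was the member that rose most with either hairpin in MIA PaCa-2 and with sh1319 in Capan-1. With sh1209 in Capan-1 its rise of 0.36 was below the 0.58 and 0.75 of the ALDH1A3 probes, a difference that was not tested. In MIA PaCa-2, probe 6510754 read 9.70 and 9.68 with shCtrl, 12.02 and 12.09 with sh1209, and 12.41 and 12.32 with sh1319. In Capan-1 the same probe read 6.66 and 6.63, 6.99 and 7.02, and 8.32 and 8.48 in that order. Every FAK hairpin array lay above both shCtrl arrays of its line, and the 6 MIA PaCa-2 arrays lay above the 6 Capan-1 arrays. With only 2 arrays against 2 such separation was common, and from shCtrl it held for 54.2% (sh1209) and 56.9% (sh1319) of all tested probes in MIA PaCa-2 and for 55.5% and 53.9% in Capan-1. Between the lines with shCtrl it held for 67.6% of all tested probes. The share for all 6 arrays of a line against the 6 of the other was not computed.

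The rise on this probe was 2.36 (SE 0.11), or 5.14-fold, with sh1209 in MIA PaCa-2 (limma adjusted p = 6.9e-08) and 2.67 (SE 0.11), or 6.39-fold, with sh1319 (adjusted p = 1.9e-08). In Capan-1 it was 1.76 (SE 0.11), or 3.38-fold, with sh1319 (adjusted p = 4.6e-06). With sh1209 in Capan-1 it was only 0.36 (SE 0.11), or 1.28-fold (adjusted p = 0.044). That smallest rise missed the threshold with median scaling (0.60, adjusted p = 0.067), in a fit of only its 4 arrays (adjusted p = 0.081), with the replicate number as a block (adjusted p = 0.054), and without any 1 of its 4 arrays (changes of 0.34 to 0.38, adjusted p = 0.13 to 0.17) or any 1 of the 6 MIA PaCa-2 arrays (changes of 0.36, adjusted p = 0.055 to 0.057).

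The second ALDH1A1 probe, 1070477, read 9.13 and 9.07 with shCtrl in MIA PaCa-2, 11.00 and 10.90 with sh1209, and 11.50 and 11.59 with sh1319. In Capan-1 it read 6.04 and 6.43, 6.49 and 6.77, and 7.60 and 7.83. In MIA PaCa-2 it rose by 1.85 (adjusted p = 8.4e-06) and 2.44 (adjusted p = 5.6e-07), and the rise with sh1319 in Capan-1 was 1.48 (adjusted p = 0.00013). With sh1209 in Capan-1 it was higher by 0.40, with a 95% interval of 0.06 to 0.74, and did not pass the test (adjusted p = 0.11).

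The hairpins differed for ALDH1A1 in Capan-1, where sh1209 stood below sh1319 by 1.40 on probe 6510754 (adjusted p = 1.1e-05) and by 1.09 on probe 1070477 (adjusted p = 0.00092). PTK2 probe 450253 was higher by 1.16 with sh1209 than with sh1319 in the same cells (adjusted p = 6.2e-05), and whether the 2 differences are linked was not tested. The dimmer PTK2 probe, 2680750, differed there by only -0.0005 and did not pass. In MIA PaCa-2 the hairpins differed by 0.59 on probe 1070477 (adjusted p = 0.015), with sh1319 higher. That call was lost without sh1209 replicate 2 (0.54, adjusted p = 0.086), sh1319 replicate 1 (0.64, adjusted p = 0.050) or sh1319 replicate 2 (0.56, adjusted p = 0.079). On probe 6510754 the difference of 0.31 did not pass (adjusted p = 0.064), and passed without background correction (adjusted p = 0.0019), with an offset of 50 (0.0066), with no filter (0.033) and with a stricter one (0.031).

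**Figure D1:**
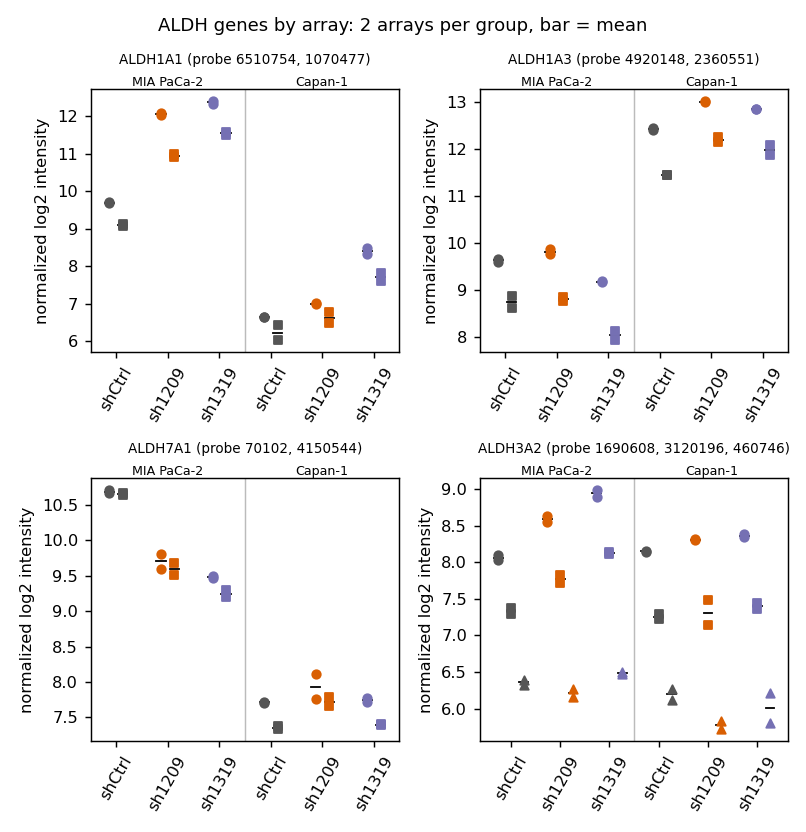
Normalized log2 intensity (vertical axis) of every probe of ALDH1A1, ALDH1A3, ALDH7A1 and ALDH3A2 on the 12 arrays, by hairpin within each cell line. Each point is an array, circles, squares and triangles are the probes in the order of the panel title, and a bar is the mean of the group's 2 arrays. ALDH1A1 is higher with either FAK hairpin in both lines, ALDH7A1 is lower in MIA PaCa-2 alone, and the lowest ALDH3A2 probe does not follow the upper ones.

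ALDH1A3, the retinal dehydrogenase that stood higher in Capan-1, moved one way in Capan-1 and the other way in MIA PaCa-2 with sh1319. Probe 4920148 read 12.44 and 12.41 with shCtrl in Capan-1, 13.00 and 13.02 with sh1209, and 12.85 on both arrays with sh1319. In MIA PaCa-2 it read 9.60 and 9.66, 9.86 and 9.77, and 9.17 and 9.19. The Capan-1 arrays with a FAK hairpin were all above shCtrl, and the MIA PaCa-2 arrays with sh1319 were below all others of that line. Of all tested probes, 55.5% (sh1209) and 53.9% (sh1319) separated from shCtrl in Capan-1. In MIA PaCa-2, 56.9% separated between sh1319 and shCtrl and 56.8% between the hairpins.

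In Capan-1 ALDH1A3 rose by 0.58 (SE 0.10), or 1.50-fold, with sh1209 on probe 4920148 (adjusted p = 0.0029) and by 0.43 (SE 0.10), or 1.34-fold, with sh1319 (adjusted p = 0.019). Probe 2360551 read 11.45 and 11.44 with shCtrl, 12.14 and 12.26 with sh1209, and 11.88 and 12.09 with sh1319, and rose by 0.75 (adjusted p = 0.0026) and 0.54 (adjusted p = 0.019). With median scaling 3 of these 4 rises missed the threshold (adjusted p = 0.068 and 0.11 on probe 4920148, and 0.054 on probe 2360551 with sh1319). Of the rises with sh1319, that on probe 4920148 was lost without any 1 of its 4 arrays (0.41 to 0.44, adjusted p = 0.073 to 0.096) and in a fit of only those arrays (adjusted p = 0.062). That on probe 2360551 was lost without sh1319 replicate 2 (0.43, adjusted p = 0.13), shCtrl replicate 1 (0.54, adjusted p = 0.088) or shCtrl replicate 2 (0.53, adjusted p = 0.092).

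In MIA PaCa-2 ALDH1A3 fell with sh1319 by 0.45 on probe 4920148 (adjusted p = 0.0079), to 73.1% of shCtrl. Probe 2360551 read 8.87 and 8.62 with shCtrl, 8.84 and 8.76 with sh1209, and 7.94 and 8.14 with sh1319, and fell by 0.70 with sh1319 (adjusted p = 0.0022), to 61.4%. Both falls missed the threshold with median scaling (adjusted p = 0.36 and 0.065), and the first also in a fit of only its 4 arrays (adjusted p = 0.052). With sh1209 the changes were 0.19 (95% interval -0.04 to 0.41) and 0.06 (-0.23 to 0.35), and neither passed. Between the hairpins in MIA PaCa-2, sh1209 was higher than sh1319 by 0.64 (adjusted p = 0.00091) and 0.76 (adjusted p = 0.0013), the first lost with median scaling (0.48, adjusted p = 0.13).

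ALDH1A2, the third retinal dehydrogenase, was at background. Probe 510687 lay between 4.29 and 4.88 over the 12 arrays, was detected on 2, both of MIA PaCa-2, and passed the test in none of the 9 comparisons, though it did so for sh1319 in MIA PaCa-2 (0.40, adjusted p = 0.047) and for both lines together (0.26, adjusted p = 0.046) when MIA PaCa-2 sh1209 replicate 2 was left out. Probe 5700102 was detected on 0 of 12 arrays and was not tested.

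ALDH1B1 and ALDH2 are mitochondrial enzymes that oxidise acetaldehyde, ALDH2 being the main one in alcohol breakdown. ALDH1B1 rose in MIA PaCa-2 with sh1209 but not detectably with sh1319. Probe 1240379 read 7.12 and 7.14 with shCtrl, 7.87 and 7.97 with sh1209, and 7.30 and 7.22 with sh1319. The rise with sh1209 was 0.79 (SE 0.12), or 1.73-fold (adjusted p = 0.00078), and the change with sh1319 was 0.13 (95% interval -0.13 to 0.40, adjusted p = 0.50).

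The dimmer ALDH1B1 probe, 2650204, read 5.32 and 5.05, 5.84 and 5.87, and 5.24 on both arrays in that order, and rose by 0.67 with sh1209 (adjusted p = 0.020). This was lost with median scaling (0.64, adjusted p = 0.070) and without sh1209 replicate 1 (0.69, adjusted p = 0.077), sh1209 replicate 2 (0.66, adjusted p = 0.083) or shCtrl replicate 2 (0.54, adjusted p = 0.13). The hairpins differed by 0.66 on probe 1240379 (adjusted p = 0.0018) and 0.62 on probe 2650204 (adjusted p = 0.023), sh1209 being higher. Median scaling ended both calls (adjusted p = 0.051 and 0.13), and the second was lost without any 1 of its 4 arrays (0.61 to 0.63, adjusted p = 0.085 to 0.096). In Capan-1 probe 1240379 lay between 6.52 and 6.96 on the 6 arrays, and neither ALDH1B1 probe passed the test with either hairpin.

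ALDH2 was found in Capan-1 and not in MIA PaCa-2. Probe 840253 read 8.40 and 8.10 with shCtrl in Capan-1, 7.98 and 8.22 with sh1209, and 7.72 and 8.13 with sh1319, and these groups overlapped. In MIA PaCa-2 it lay between 4.21 and 4.35 and was detected on 0 of 6 arrays. The changes with sh1209 and sh1319 in Capan-1 were -0.15 (95% interval -0.49 to 0.20) and -0.32 (-0.67 to 0.02), and neither passed.

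**Figure D2:**
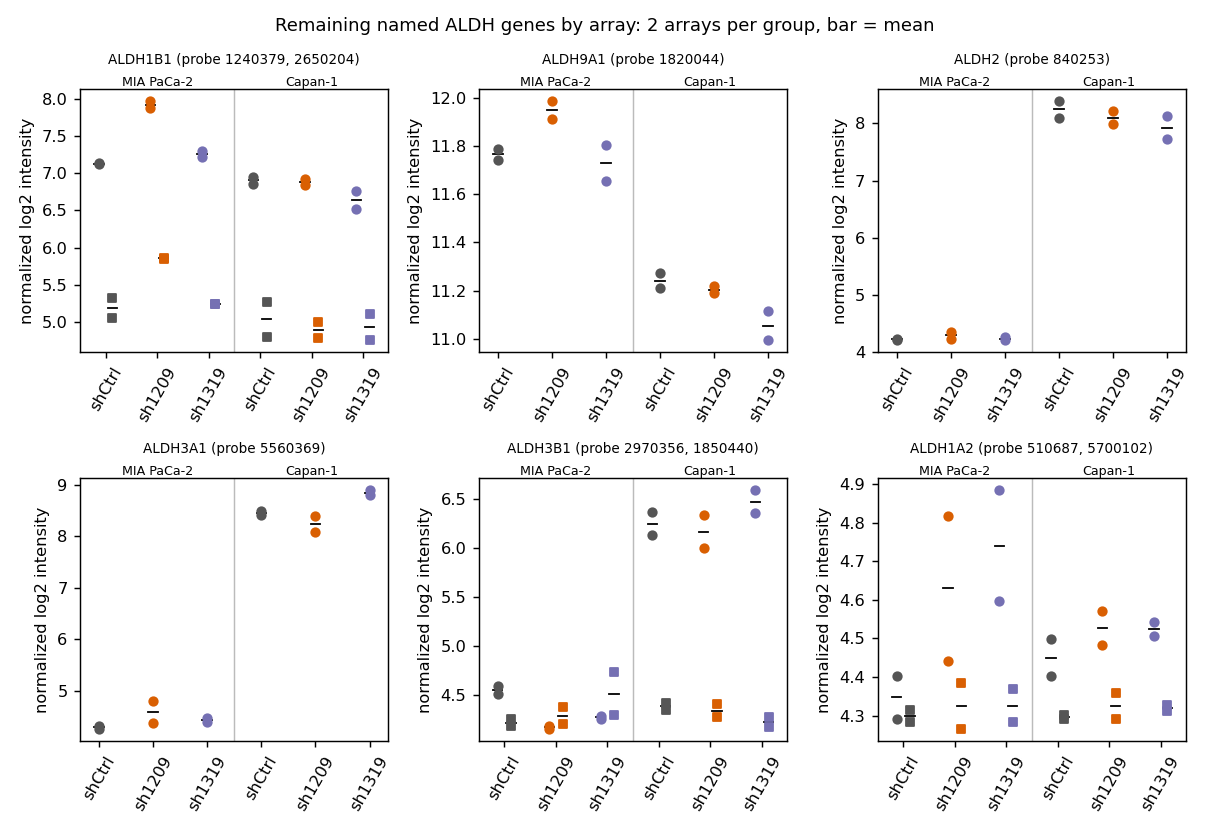
Normalized log2 intensity (vertical axis, its own range in each panel) of every probe of ALDH1B1, ALDH9A1, ALDH2, ALDH3A1, ALDH3B1 and ALDH1A2 on the 12 arrays. Each point is an array, circles and squares are the probes in the order of the panel title, and a bar is the mean of the group's 2 arrays. ALDH2, ALDH3A1 and the brighter ALDH3B1 probe are above background in Capan-1, and in MIA PaCa-2 they stay below 5.

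The ALDH3 enzymes oxidise medium-chain, aromatic and fatty aldehydes. ALDH3A2, the fatty aldehyde dehydrogenase whose loss causes Sjögren-Larsson syndrome, rose in MIA PaCa-2 with both hairpins on 2 of its 3 probes. Probe 1690608 read 8.03 and 8.09 with shCtrl, 8.64 and 8.54 with sh1209, and 8.90 and 8.99 with sh1319. Probe 3120196 read 7.29 and 7.37, 7.82 and 7.72, and 8.14 and 8.11. On both probes the 3 groups were apart, with sh1319 highest, where 54.2% and 56.9% of all probes separated from shCtrl and 56.8% between the hairpins.

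With sh1319 ALDH3A2 rose by 0.88 (SE 0.11), or 1.84-fold (adjusted p = 9.2e-05), and by 0.80 (SE 0.13), or 1.74-fold (adjusted p = 0.00078), on the 2 probes. With sh1209 it rose by 0.53 (adjusted p = 0.0047) and 0.44 (adjusted p = 0.035). Both rises with sh1209 missed the threshold with median scaling (adjusted p = 0.072 and 0.18) and in a fit of only their 4 arrays (0.055 and 0.090), and that on probe 3120196 also with array weights (0.059) or without any 1 of the 4 arrays (0.39 to 0.49, adjusted p = 0.076 to 0.16). The hairpins differed by 0.35 on probe 1690608 (adjusted p = 0.033), a call lost with median scaling (0.53, adjusted p = 0.096), in a fit of only its 4 arrays (adjusted p = 0.11) and without any 1 of them (0.30 to 0.40, adjusted p = 0.067 to 0.16). On probe 3120196 they differed by 0.36 (adjusted p = 0.071), which passed without Capan-1 sh1209 replicate 1 (adjusted p = 0.044) or replicate 2 (0.042), with an offset of 50 (0.018), with no background correction (0.010) and with a stricter filter (0.042).

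The remaining ALDH3A2 probe, 460746, read 6.32 and 6.39, 6.27 and 6.15, and 6.47 and 6.50 in MIA PaCa-2, and its changes of -0.14 and 0.13 did not pass. In Capan-1 it read 6.27 and 6.12 with shCtrl, 5.72 and 5.82 with sh1209, and 6.21 and 5.80 with sh1319. Its change of -0.42 with sh1209 did not pass (adjusted p = 0.063) and passed without sh1319 replicate 1 (adjusted p = 0.032) or replicate 2 (0.030), with array weights (0.046), an offset of 50 (0.041) or a stricter filter (0.038). The other 2 probes lay between 7.14 and 8.39 in Capan-1, were higher with either hairpin by 0.05 to 0.21, and did not pass. The 3 probes of ALDH3A2 thus had opposite signs with sh1209 in either line. They also had opposite signs with sh1319 in Capan-1, where probe 460746 changed by -0.19 and did not pass (adjusted p = 0.47).

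ALDH3A1, a cytosolic enzyme of cornea and of some carcinomas, was bright in Capan-1 and at background in MIA PaCa-2. Probe 5560369 read 8.42 and 8.49 with shCtrl in Capan-1, 8.39 and 8.08 with sh1209, and 8.89 and 8.80 with sh1319. In MIA PaCa-2 it lay between 4.25 and 4.81 and was detected on 1 of 6 arrays. Against shCtrl the Capan-1 changes of -0.22 and 0.39 did not pass (adjusted p = 0.43 and 0.13), the second passing without background correction (0.33, adjusted p = 0.0063) and with an offset of 50 (0.36, adjusted p = 0.017). The hairpins differed by 0.61, sh1209 being lower (adjusted p = 0.027). That call was lost with median scaling (0.55, adjusted p = 0.12) and without sh1209 replicate 2 (0.46, adjusted p = 0.18), sh1319 replicate 1 (0.56, adjusted p = 0.14) or sh1319 replicate 2 (0.66, adjusted p = 0.074).

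ALDH3B1, an enzyme of membrane lipid aldehydes, was dim. Probe 2970356 lay between 6.0 and 6.59 in Capan-1 and between 4.16 and 4.59 in MIA PaCa-2, where it was detected on 0 of 6 arrays, and it passed with no hairpin. Its change of -0.38 with sh1209 in MIA PaCa-2, where it was not detected, passed without background correction alone (-0.24, adjusted p = 0.024). Probe 1850440 was detected on 1 of 12 arrays and was not tested.

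ALDH7A1, antiquitin, which breaks down an intermediate of lysine and whose loss causes pyridoxine-dependent epilepsy, fell in MIA PaCa-2 with both hairpins. Probe 70102 read 10.70 and 10.67 with shCtrl, 9.80 and 9.60 with sh1209, and 9.47 and 9.49 with sh1319. Probe 4150544 read 10.64 and 10.66, 9.67 and 9.51, and 9.29 and 9.20. The 3 groups did not overlap on either probe, with the same shares of 54.2%, 56.9% and 56.8% over all probes.

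ALDH7A1 fell by 0.99 (SE 0.13), to 50.5% of shCtrl, with sh1209 on probe 70102 (adjusted p = 0.00034) and by 1.06 (SE 0.11), to 48.0%, on probe 4150544 (adjusted p = 5.9e-05). With sh1319 it fell by 1.21 (SE 0.13), to 43.3% (adjusted p = 4.7e-05), and by 1.40 (SE 0.11), to 37.8% (adjusted p = 3.7e-06). The falls held in each alternative limma fit that was run. The hairpins differed by 0.35 on probe 4150544 (adjusted p = 0.045), a call that ended in 15 of 20 alternatives, with median scaling (0.17, adjusted p = 0.74), in a fit of only its 4 arrays (adjusted p = 0.13), with array weights (0.053) and without any 1 of the 12 arrays (0.26 to 0.42, adjusted p = 0.051 to 0.23).

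In Capan-1 ALDH7A1 did not fall. Probe 70102 read 7.70 and 7.72 with shCtrl, 8.11 and 7.76 with sh1209, and 7.77 and 7.72 with sh1319, and did not pass. Probe 4150544 read 7.37 and 7.33, 7.78 and 7.66, and 7.40 on both arrays, and rose by 0.37 with sh1209 (adjusted p = 0.045). That rise was lost in 12 of 20 alternatives, with median scaling (0.59, adjusted p = 0.060), in a fit of only its 4 arrays (adjusted p = 0.084), without any 1 of those arrays (0.30 to 0.43, adjusted p = 0.082 to 0.22), and without any 1 of the sh1319 arrays of either line or the MIA PaCa-2 shCtrl arrays (0.36 to 0.37, adjusted p = 0.052 to 0.060). The difference of 0.32 between its hairpins did not pass (adjusted p = 0.095) and passed without background correction (0.028), with an offset of 50 (0.028) and with a stricter filter (0.048).

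ALDH9A1, which acts in carnitine and GABA synthesis, changed with no hairpin. Probe 1820044 lay between 11.66 and 11.99 in MIA PaCa-2 and between 10.99 and 11.27 in Capan-1. Its 4 changes against shCtrl were 0.18, -0.04, -0.04 and -0.19, with 95% intervals that reached no further than 0.43 from 0 in either direction. Its difference of 0.22 between hairpins in MIA PaCa-2 (adjusted p = 0.20) passed without background correction alone (adjusted p = 0.033).

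Counted over the family, 8 of the 16 tested probes were called with sh1209 in MIA PaCa-2 (6 higher, 2 lower), where 18.0% of all tested probes were called, and 8 with sh1319 (4 higher, 4 lower), where 24.3% were. In Capan-1, 4 were called with sh1209, where 16.8% of all probes were, and 4 with sh1319, where 13.7% were, and each of these was higher. Between the hairpins 7 of 16 differed in MIA PaCa-2 (5 higher with sh1209), against 22.6% of all probes, and 3 of 16 in Capan-1 (each lower with sh1209), against 11.3%. Over both lines and hairpins together 6 of 16 were called (4 higher, 2 lower), against 25.2% of all probes. The median change of the 16 probes in MIA PaCa-2 was 0.23 for the first hairpin, sh1209, and 0.09 for the second, sh1319, and in Capan-1 it was 0.07 and 0.11, where the medians over all tested probes lay between -0.01 and 0.01. The methods' t-test, run on 2 arrays against 2 for each probe alone, called 0 of the 16 in each of the 6 comparisons within a line after Benjamini-Hochberg adjustment, and 4 to 9 without it. The genes were put forward from these contrasts, and probes of 1 gene share their transcript, so nothing is drawn from these counts.

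The same shCtrl arrays enter both hairpin comparisons of a line, so these are not independent of each other. In the combined contrast the mean change was 1.79 and 1.54 for ALDH1A1, 0.45 and 0.36 for ALDH3A2 probes 1690608 and 3120196, and -0.49 and -0.51 for ALDH7A1 (adjusted p of 0.0060 or less in each). ALDH1A3 (0.19 and 0.16) and ALDH1B1 probe 1240379 (0.16) did not pass in it, and each passed without background correction (adjusted p = 0.0010, 0.011 and 0.041) and with an offset of 50 (0.0041, 0.046 and 0.049). When the 2 arrays of each group were averaged first, the error held the spread between hairpins and any difference in response between the lines. In that fit 0 of the 16 probes and 0 of all probes passed in limma (lowest adjusted p of a member 0.588), with 3 of the 16 and 1813 of all under an unadjusted 0.05.

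**Figure D3:**
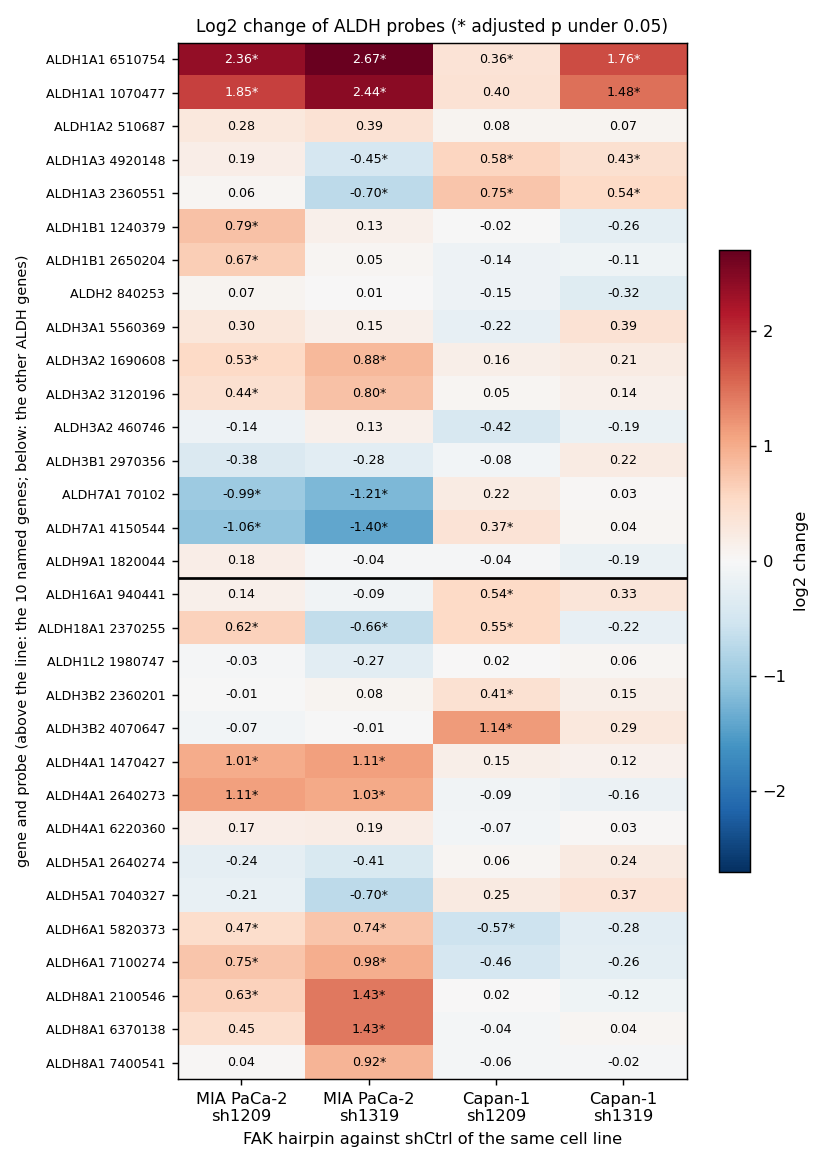
Log2 change against shCtrl of the same cell line (columns, each a hairpin in a line) for the 16 tested probes of the 10 genes above the line and the 15 tested probes of the other ALDH genes below it. Colour and number give the change, and a star marks an adjusted p under 0.05. The ALDH1A1 rows hold the largest rises, up to 2.67, and the ALDH7A1 rows the largest falls, down to -1.40.

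With shCtrl alone, the 2 cell lines differed in the RNA level of several of these genes. ALDH1A1 and ALDH7A1 stood higher in MIA PaCa-2, and ALDH1A3, ALDH2, ALDH3A1 and ALDH3B1 stood higher in Capan-1. ALDH1A1 was higher in MIA PaCa-2 by 3.05 (SE 0.11) on probe 6510754, or 8.26-fold (adjusted p = 6.4e-10), and by 2.87 on probe 1070477, or 7.32-fold (adjusted p = 2.3e-08). ALDH7A1 was higher there by 2.98, or 7.86-fold, and 3.30, or 9.82-fold (adjusted p = 4.4e-09 and 4.0e-10). ALDH9A1 was higher there by 0.53, or 1.44-fold (adjusted p = 0.0022).

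ALDH1A3 differed by -2.79 and -2.71, standing in MIA PaCa-2 at 14.4% and 15.3% of the Capan-1 level (adjusted p = 8.9e-10 and 1.0e-08). For the members not detected in MIA PaCa-2 with shCtrl, only a bound can be given against the dimmest detected probe of each array. The adjusted p beside a bound, here and below, is that of the fitted limma difference and does not test the bound. ALDH3A1 was at least 13.4-fold higher in Capan-1 (adjusted p = 8.9e-10), ALDH2 at least 11.6-fold (adjusted p = 1.2e-09) and ALDH3B1 probe 2970356 at least 2.91-fold (adjusted p = 1.4e-06). ALDH1B1 and ALDH3A2 differed by -0.09 to 0.22 on their 5 probes, and none of these passed. In all, 10 of 16 probes were called, 5 in each direction, where 42.1% of all probes were, and these 10 calls held in each alternative limma fit that was run. The epithelial markers given above differ between the lines as well.

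**Figure D4:**
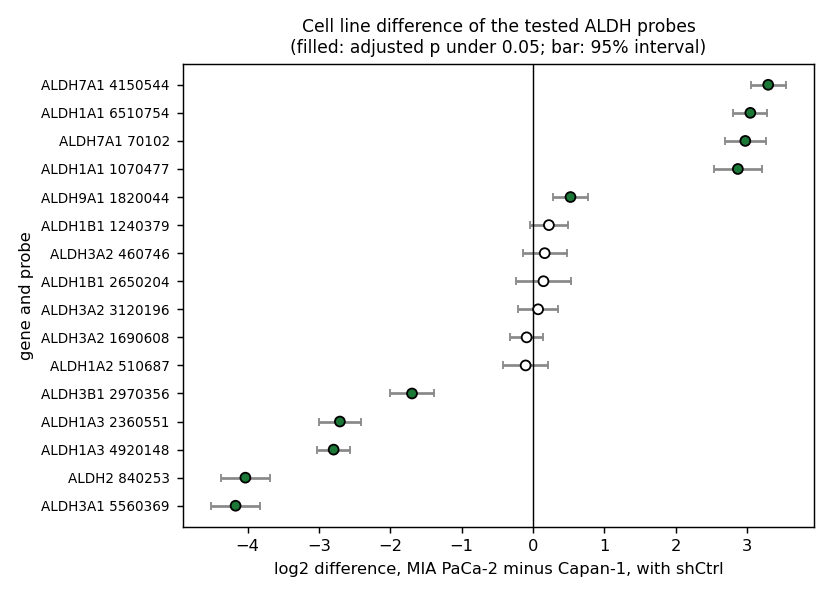
Log2 difference between MIA PaCa-2 and Capan-1 with shCtrl (horizontal axis, positive is higher in MIA PaCa-2) for the 16 tested probes. Points are fitted differences of 2 against 2 arrays, bars are 95% intervals, and filled points have an adjusted p under 0.05. ALDH7A1 and ALDH1A1 lie near 3 and ALDH2 and ALDH3A1 near -4, the last 2 being set by background in MIA PaCa-2.

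Over the 6 groups, the order of ALDH1A1 probe 6510754 ran from Capan-1 shCtrl (mean 6.64) through Capan-1 sh1209 (7.0), Capan-1 sh1319 (8.40), MIA PaCa-2 shCtrl (9.69) and MIA PaCa-2 sh1209 (12.05) to MIA PaCa-2 sh1319 (12.37), and no neighbours in that order had arrays that overlapped. For the neighbours of the same line, 51.9% to 56.8% of all tested probes separated as well. The share was computed neither for the whole order nor for the step from Capan-1 sh1319 to MIA PaCa-2 shCtrl. ALDH7A1 ran the other way within MIA PaCa-2, and on probe 70102 its 3 lowest groups, those of Capan-1 (means 7.71, 7.74 and 7.93), overlapped with their neighbours. On probe 4150544 no neighbouring groups overlapped. The 3 tested probes of other genes most like ALDH1A1 probe 6510754 over the 12 arrays were FAM127A (r = 0.9857), C12ORF76 (r = 0.9846) and SIRT5 (r = 0.9845). These correlations describe 12 arrays that form 6 groups and carry no test.

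Whether the hairpins moved a gene by different amounts in the 2 lines was tested as an interaction, the mean hairpin change in MIA PaCa-2 minus that in Capan-1. It was called for 9 of the 16 probes (5 higher, 4 lower), where 14.4% of all probes were called. ALDH1A1 had a higher mean change in MIA PaCa-2, of 2.52 against 1.06 on probe 6510754 (difference 1.46, SE 0.13, adjusted p = 2.6e-05) and 2.15 against 0.94 on probe 1070477 (difference 1.21, adjusted p = 0.0014). On probe 6510754 the Capan-1 mean joins unlike changes of 0.36 with sh1209 and 1.76 with sh1319. The MIA PaCa-2 mean joins 2.36 and 2.67. ALDH7A1 had a mean change of -1.10 against 0.13 on probe 70102 (difference -1.22, adjusted p = 0.00045) and -1.23 against 0.21 on probe 4150544 (difference -1.44, adjusted p = 3.7e-05). These 4 interactions held in each alternative limma fit that was run.

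On probe 4920148 ALDH1A3 had a mean change of -0.13 in MIA PaCa-2 against 0.50 in Capan-1 (difference -0.64, adjusted p = 0.0066) and of -0.32 and 0.64 on probe 2360551 (difference -0.97, adjusted p = 0.0022), the first lost with median scaling (-0.64, adjusted p = 0.13). The MIA PaCa-2 means join 0.19 and 0.06 with sh1209 and -0.45 and -0.70 with sh1319. The signs thus differed between the lines with sh1319 and not with sh1209. ALDH1B1 probe 1240379 (difference 0.60, adjusted p = 0.018) was lost with median scaling (0.46, adjusted p = 0.33) and without Capan-1 shCtrl replicate 2 (0.56, adjusted p = 0.076), MIA PaCa-2 shCtrl replicate 1 (0.59, adjusted p = 0.056) or MIA PaCa-2 shCtrl replicate 2 (0.61, adjusted p = 0.052). ALDH3A2 probe 1690608 (difference 0.52, adjusted p = 0.021) was lost with median scaling (0.46, adjusted p = 0.35) and without Capan-1 shCtrl replicate 1 (0.53, adjusted p = 0.064), Capan-1 shCtrl replicate 2 (0.52, adjusted p = 0.068) or MIA PaCa-2 shCtrl replicate 1 (0.48, adjusted p = 0.074). ALDH3A2 probe 3120196 (difference 0.52, adjusted p = 0.049) was lost in 14 of 19 alternatives, among them median scaling (0.40, adjusted p = 0.46), the replicate block (adjusted p = 0.062), array weights (adjusted p = 0.058) and each array left out except Capan-1 sh1209 replicate 2 (0.44 to 0.56, adjusted p = 0.060 to 0.15). PTK2 probe 450253 also fell further in MIA PaCa-2, by 1.17 (adjusted p = 0.00021), and whether its size carries over to these genes was not tested. On the dimmer PTK2 probe, 2680750, the interaction had the other sign, 0.47, and did not pass (adjusted p = 0.15).

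**Figure D5:**
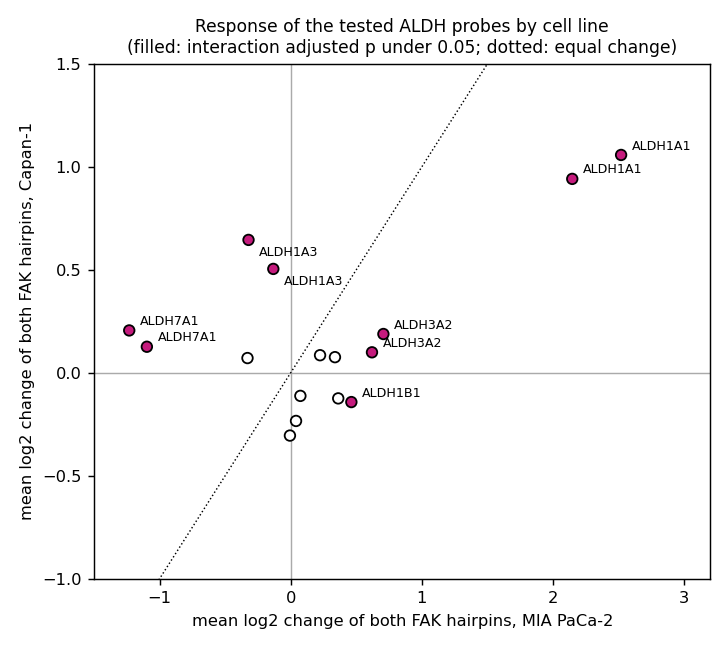
Mean log2 change of the 2 FAK hairpins in MIA PaCa-2 (horizontal axis) and in Capan-1 (vertical axis) for the 16 tested probes. The dotted line marks equal change, and filled, named points have an interaction adjusted p under 0.05. ALDH1A1 lies at the upper right, below the line of equal change, and ALDH7A1 and ALDH1A3 lie left of 0 in MIA PaCa-2 and above 0 in Capan-1. The ALDH1A3 change in MIA PaCa-2 was below 0 with sh1319 and not with sh1209.

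The other 9 human ALDH genes had 19 probes, of which 15, from 8 genes, were tested. Against the same background shares, 6 of 15 were called with sh1209 in MIA PaCa-2 (all higher), 9 with sh1319 (7 higher, 2 lower), 5 with sh1209 in Capan-1 (4 higher, 1 lower) and 0 with sh1319 in Capan-1. ALDH4A1, a mitochondrial enzyme of proline breakdown, rose in MIA PaCa-2 on 2 of 3 probes. Its probe 1470427 had group means of 6.23, 7.24 and 7.34 with shCtrl, sh1209 and sh1319, rises of 1.01 and 1.11 (adjusted p = 0.00052 and 0.00016). Its probe 2640273 was not detected with shCtrl and rose by at least 1.71-fold with sh1209 and at least 1.61-fold with sh1319 (adjusted p = 0.00062 and 0.00068).

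ALDH8A1, which acts in tryptophan breakdown, rose with sh1319 in MIA PaCa-2 on its 3 probes, by 1.43 on probe 2100546 (adjusted p = 3.6e-05), and by at least 2.08-fold and 1.80-fold on probes 6370138 and 7400541 (adjusted p = 5.3e-05 and 0.00039), which were not detected with shCtrl. Probe 2100546 also rose with sh1209, by 0.63 (adjusted p = 0.014), a call lost with median scaling (0.55, adjusted p = 0.096). ALDH6A1, of valine breakdown, rose in MIA PaCa-2 by 0.47 and 0.74 on probe 5820373 (adjusted p = 0.046 and 0.0031) and fell in Capan-1 with sh1209 by 0.57 (adjusted p = 0.021), the first and last lost with median scaling (0.52, adjusted p = 0.10, and -0.31, adjusted p = 0.40). Its probe 7100274 rose in MIA PaCa-2 by 0.75 and 0.98 (adjusted p = 0.022 and 0.0036). ALDH18A1, of proline synthesis, rose with sh1209 in MIA PaCa-2 by 0.62 (adjusted p = 0.0035) and in Capan-1 by 0.55 (adjusted p = 0.0082) and fell with sh1319 in MIA PaCa-2 by 0.66 (adjusted p = 0.0015), the fall lost with median scaling (-0.52, adjusted p = 0.095).

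ALDH3B2 probe 4070647 rose by 1.14 with sh1209 in Capan-1 (adjusted p = 8.2e-05). Its probe 2360201 was not detected with shCtrl there and rose by at least 1.23-fold (adjusted p = 0.037), a call lost with median scaling (adjusted p = 0.086) and without background correction (0.21). ALDH16A1 rose there by 0.54 (adjusted p = 0.019), a call lost without background correction (0.19, adjusted p = 0.062). ALDH5A1, of GABA breakdown, fell by 0.70 with sh1319 in MIA PaCa-2 on probe 7040327 (adjusted p = 0.0089), lost with median scaling (-0.57, adjusted p = 0.075). ALDH1L2 probe 1980747 passed in no comparison, and ALDH1L1 was not tested. In the cell line comparison 6 of 15 were called (2 higher in MIA PaCa-2), near the 42.1% of all probes, and median scaling ended 2 of these, ALDH16A1 (adjusted p = 0.42, and 0.069 without background correction) and ALDH4A1 probe 6220360 (adjusted p = 0.068). In the interaction 8 of 15 were called (6 higher), where 14.4% of all probes were.

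Genes around the retinoid step were read from fixed lists. The shares of all probes called, to set beside each list's counts, in MIA PaCa-2 were 18.0% (sh1209) and 24.3% (sh1319), while in Capan-1 they were 16.8% and 13.7%. Of 14 tested probes of retinoid uptake and oxidation (11 of 13 genes), 2 were called with sh1209 in MIA PaCa-2 (1 higher), 3 with sh1319 (1 higher), and in Capan-1 5 with sh1209 (4 higher) and 3 with sh1319 (1 higher). DHRS3, which reduces retinal back to retinol, fell by 1.02 with sh1209 in MIA PaCa-2 (adjusted p = 0.025), and RDH11, a retinol dehydrogenase, rose there by 0.49 with sh1319 (adjusted p = 0.013).

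Of 7 tested probes of retinoic acid carriers and receptors (6 of 9 genes), 3 were called with sh1209 in MIA PaCa-2 (all higher), 0 with sh1319, 3 with sh1209 in Capan-1 (1 higher) and 3 with sh1319 (1 higher). FABP5, a carrier of fatty acids and retinoic acid, rose in MIA PaCa-2 with sh1209 by 0.62 on probe 4150048 (adjusted p = 0.0084, and 0.052 with median scaling) and fell in Capan-1 with sh1209 by 1.82 on probe 5260047 (adjusted p = 0.00015). RXRA, a partner receptor, rose by 0.68 with sh1319 in Capan-1 (adjusted p = 0.0078).

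Of 11 tested probes of retinoic acid clearance and response (8 of 10 genes), 5 were called with sh1209 in MIA PaCa-2 (1 higher), 5 with sh1319 (2 higher), 4 with sh1209 in Capan-1 (all higher) and 5 with sh1319 (4 higher). TGM2, tissue transglutaminase, fell by 3.98, to 6.32% of shCtrl, with sh1209 in MIA PaCa-2 on probe 1580435 (adjusted p = 4.3e-09) and by 0.88 with sh1319 in Capan-1 on probe 2940446 (adjusted p = 0.0025, and 0.052 with median scaling). NRIP1, a receptor corepressor, rose by 2.38 with sh1319 in MIA PaCa-2 (adjusted p = 1.5e-06), from a shCtrl mean of 4.78 with 1 of 2 arrays detected. RARRES2, the precursor of chemerin, rose by 1.14 with sh1319 in Capan-1 (adjusted p = 0.00066).

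Of 16 tested probes of other aldehyde and alcohol oxidoreductases (13 of 19 genes), 5 were called with sh1209 in MIA PaCa-2 (2 higher), 5 with sh1319 (4 higher), 8 with sh1209 in Capan-1 (3 higher) and 6 with sh1319 (5 higher). The AKR1C4 probe 3120598 rose by 6.02 with sh1319 in MIA PaCa-2 (adjusted p = 1.2e-10), from a mean of 5.96 to 11.98, and read 10.69 with sh1209. The other tested AKR1C4 probe, 2650736, was detected in no MIA PaCa-2 group. The close paralogs AKR1C1, AKR1C2 and AKR1C3 may share the target of probe 3120598, so the gene behind its signal is uncertain. The AKR1C3 probe 7210632 was detected in no MIA PaCa-2 group. The tested AKR1C2 probe, 5340129, read 4.44, 4.74 and 4.89 there with shCtrl, sh1209 and sh1319, and neither change passed. AKR1C1 had no tested probe, and which gene gave the rise was not tested. CBR3, a carbonyl reductase, fell by 1.06 with sh1319 in MIA PaCa-2 (adjusted p = 7.8e-05). In Capan-1 with sh1209, AKR1B1, aldose reductase, rose by 1.24 (adjusted p = 4.0e-05) and AKR1B10, which reduces retinal, fell by 2.78, to 14.6% of shCtrl (adjusted p = 5.4e-08).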

How the data were processed

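RNA of 12 samples was hybridised to Illumina bead arrays on 1 chip, from 500 ng of total RNA each. The deposited table holds 1 summarized intensity, not normalized, and 1 detection p-value per probe and array, exported by the authors with GenomeStudio 2011.1, per the labels. It had 47320 rows and 28 empty columns. The genome build behind the probes is not given in the sources used here, so the files' probes are given without positions. The files hold no probe sequence.

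The 92 spike-in rows were dropped after background correction by normexp on the detection p-values (nec in limma 3.58.1, R 4.3.3, offset 16). Intensities of the other 47228 probes were quantile-normalized and put on a log2 scale, and 24207 probes with a detection p under 0.05 on at least 2 of 12 arrays were tested. Array medians of intensity were 87.7 to 97.0, and 16259 to 19814 probes were detected per array. lmFit and eBayes were run on 6 group means with all 12 arrays (6 residual degrees of freedom), with Benjamini-Hochberg adjustment over all tested probes, and an adjusted p under 0.05 was a call. Replicate pairs correlated at 0.9907 to 0.9945. After normalization, samples with the same replicate number did not deviate together (correlations of -0.061 to 0.16 over 15 pairs of groups, 1 above 0.1), so the numbers were not taken as a pairing. Before it, the array median was higher for replicate 2 than for replicate 1 in each group, a shift that quantile normalization removes. On simulated intensities with 200 of 24207 probes changed by 1.5, the sh1209 comparison in MIA PaCa-2 recovered 100% with 4.76% false calls, and the interaction 99% with 6.6%. The simulation drew independent normal noise with the fitted spreads and skipped background correction and normalization. It cannot give the error rate of smaller changes or of calls that depend on scaling.

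Members and gene lists were chosen with earlier results of these data known. Named were every member probe, the called probes of the other ALDH genes, and of each list the called probes with the largest change in each direction in each line, at most 4 per list. One listed gene that the rule picks is not reported here. Background correction, offset, scaling, filter, array weights, replicate block, arrays fitted, the methods' t-test and left-out arrays were tried as alternatives. Those for the other ALDH genes and listed genes were added after seeing the data.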

Additional observations from a re-analysis of the deposited data

Results flagged for a closer look

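The mean hairpin change was unequal in MIA PaCa-2 and Capan-1 for 9 of the 16 tested probes, by the interaction in limma. The difference, MIA PaCa-2 minus Capan-1, was 1.2053 and 1.4615 for ALDH1A1 probes 1070477 and 6510754. Both rose with either hairpin in MIA PaCa-2 and with sh1319 in Capan-1. With sh1209 in Capan-1 probe 1070477 did not pass, and the call of probe 6510754 was lost in several alternatives. The difference was -1.223 and -1.4366 for ALDH7A1 probes 70102 and 4150544, which fell in MIA PaCa-2 alone. It was -0.6368 and -0.9665 for ALDH1A3 probes 4920148 and 2360551, whose mean changes had opposite signs in the 2 lines. Their changes had opposite signs with sh1319 and the same sign with sh1209. The difference was 0.6047 for ALDH1B1 probe 1240379, and 0.5184 and 0.5203 for ALDH3A2 probes 1690608 and 3120196. PTK2 itself differed by -1.17 on probe 450253 and by 0.47, which did not pass, on its dimmer probe 2680750. Its part in these differences was not tested.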

How the results depend on the processing

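Across the alternatives no call of a member probe turned its direction. Of called values, 1055 kept their call and 116 lost it, and of values not called, 1634 stayed so and 32 passed. Median scaling gave 5 called probes for sh1209 in MIA PaCa-2, in Capan-1 1 for sh1209 and 2 for sh1319, 2 between the hairpins in MIA PaCa-2 and 5 in the interaction. A fit of only the arrays compared gave 2 for sh1209 in Capan-1. The methods' t-test, unadjusted, gave 9, 9, 6 and 6 of 16 for the hairpins against shCtrl and 9 and 4 between hairpins in MIA PaCa-2 and Capan-1. After Benjamini-Hochberg it gave 0 in each of these 6 comparisons, where limma called 3 to 8, and 0 to 4 of all probes. For the cell lines it gave 11 and 10. With replicates averaged first, 0 passed for both lines together. Leaving out 1 array gave 6 to 8 and 8 to 9 calls in MIA PaCa-2 with sh1209 and sh1319, 2 to 4 and 2 to 4 in Capan-1, 3 to 7 and 2 to 3 between hairpins, 6 to 7 for both lines, 10 to 10 between lines and 6 to 9 in the interaction. Without 1 array a group of 1 was assumed to vary like the others.

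With the replicate number as a block, counts were 8, 8, 3, 4, 7, 3, 6, 10 and 8 in the order of the comparisons (sh1209 and sh1319 in MIA PaCa-2, the same in Capan-1, between hairpins in each, both lines, cell lines, interaction). The block ended 2 calls, ALDH1A1 probe 6510754 with sh1209 in Capan-1 (0.054) and the ALDH3A2 probe 3120196 interaction (0.062).

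Of all called probes, the share higher was 50.3% with sh1319 in MIA PaCa-2 and 66.6% with median scaling. It was 48.4% and 81.7% with sh1209 in Capan-1, 50.6% and 85.3% with sh1319 in Capan-1 (where median scaling moved the median change of all probes to 0.107), 50.6% and 34.7% between hairpins in MIA PaCa-2, 49.6% and 78.0% for both lines, and 50.4% and 31.7% in the interaction. The cause was not tested. Signal over background limited ALDH1A2 everywhere and ALDH2, ALDH3A1 and ALDH3B1 in MIA PaCa-2.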
